A study of Mus musculus with 26 samples.

Results

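The promoters described here are those at which trimethylation of lysine 4 of histone H3 (H3K4me3) was higher in both mouse embryonic fibroblast (MEF) lines than in both embryonic stem (ES) cell lines, without trimethylation of lysine 27 (H3K27me3) in the ES lines. A promoter's value was the mean log2 ratio of immunoprecipitated over input DNA, with the median of each array set to 0, over the array probes within 1000 bp of the gene's start. Of 15173 promoters kept, 382 (2.52%) had a gap of at least 0.58 log2 units, which is 1.49-fold, between the lower MEF line and the higher ES line. Of these, 200 had an H3K27me3 value under 0.58 in both ES lines and are the members, and the other 182 had a value of 0.58 or more in at least 1 ES line.

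The series holds 26 mouse samples, of which 20 are promoter arrays and 6 are expression arrays. Both marks were measured in the ES lines E14 and V6.5, in MEF1 (male) and MEF2 (female), and in 1 line of induced pluripotent stem (iPS) cells, and each line and mark used a set of 2 arrays carrying different promoters, so each line is 1 replicate. For RNA, V6.5 ES cells kept on feeders, MEFs labelled female and the iPS cells were each hybridised to 2 arrays, and the second is labelled a duplicate. No source used here gives the lines' genotype or how the iPS line was derived. The labels do not say that duplicates are separate cultures, so p-values for RNA measure the spread between arrays, which may be technical.

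H3K4me3 marks the promoters of active genes and of many CpG-rich genes that are poised but silent. H3K27me3 is placed by Polycomb repressive complex 2, and in ES cells many developmental promoters carry both marks at once. Fibroblasts are the main producers of connective tissue: they secrete fibrillar collagens and small proteoglycans, remodel the matrix with proteases, contract through smooth-muscle-type actin, and answer injury with cytokines and chemokines.

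The sequence upstream of 6 members is shown because the members differ from most promoters in base composition, and each is, in 1 of 6 gene lists, the member with the largest gap among those matched to the promoter table. The sequences are from RefSeq (GRCm38.p6) and cover the 250 bases before the start: Col3a1 at chr1:45311288-45311537 on the plus strand, Ctsk at chr3:95498960-95499209 on the plus strand, Acta2 at chr19:34255374-34255623 on the minus strand, Runx2 at chr17:44814628-44814877 on the minus strand, Fgf7 at chr2:126034408-126034657 on the plus strand and Cp at chr3:19956804-19957053 on the plus strand. Capitals mark matches on either strand to the motifs: TATAAA (the TATA box), TGANTCA (AP-1), GGAATG (TEAD), CCAAT (NF-Y), GGGCGG (Sp1), the interferon-stimulated response element core and the CArG box. The CArG box was searched only in its strict form, CC, 6 bases of A or T, then GG. Variants with another base were not searched, so an unmarked window may hold one. None of the searched motifs was found in the Ctsk and Runx2 windows. A match is only a match of letters.
Col3a1: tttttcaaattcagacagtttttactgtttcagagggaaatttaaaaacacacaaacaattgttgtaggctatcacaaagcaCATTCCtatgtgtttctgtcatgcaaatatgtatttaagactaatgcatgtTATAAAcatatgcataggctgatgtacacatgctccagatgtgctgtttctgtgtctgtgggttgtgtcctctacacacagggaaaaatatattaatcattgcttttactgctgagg
Ctsk: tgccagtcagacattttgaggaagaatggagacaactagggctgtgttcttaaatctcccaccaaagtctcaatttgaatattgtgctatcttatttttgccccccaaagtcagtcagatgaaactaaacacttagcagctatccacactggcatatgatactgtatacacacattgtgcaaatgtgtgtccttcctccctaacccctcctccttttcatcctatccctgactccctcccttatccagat
Acta2: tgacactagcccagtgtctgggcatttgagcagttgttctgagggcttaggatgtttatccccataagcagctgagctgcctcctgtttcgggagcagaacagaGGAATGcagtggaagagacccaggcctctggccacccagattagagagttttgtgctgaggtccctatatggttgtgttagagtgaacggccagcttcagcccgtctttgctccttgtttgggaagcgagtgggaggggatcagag
Runx2: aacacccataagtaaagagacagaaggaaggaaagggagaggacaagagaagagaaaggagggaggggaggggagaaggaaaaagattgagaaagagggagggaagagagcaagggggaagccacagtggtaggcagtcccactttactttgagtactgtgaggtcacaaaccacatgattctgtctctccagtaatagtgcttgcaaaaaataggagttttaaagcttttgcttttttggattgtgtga
Fgf7: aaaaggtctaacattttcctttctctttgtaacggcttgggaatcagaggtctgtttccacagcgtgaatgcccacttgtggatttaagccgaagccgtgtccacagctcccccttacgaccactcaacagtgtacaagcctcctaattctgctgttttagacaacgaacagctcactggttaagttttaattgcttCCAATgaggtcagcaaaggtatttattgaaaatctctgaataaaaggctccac
Cp: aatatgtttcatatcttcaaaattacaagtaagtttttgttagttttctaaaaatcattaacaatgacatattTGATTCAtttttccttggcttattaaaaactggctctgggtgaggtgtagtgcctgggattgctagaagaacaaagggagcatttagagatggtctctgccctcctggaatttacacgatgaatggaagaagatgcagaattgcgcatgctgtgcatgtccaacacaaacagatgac
The Col3a1, Ctsk and Runx2 windows held 0 CpG dinucleotides, Cp held 2, Acta2 4 and Fgf7 6. Windows without CpG are not typical of the members: 7 of the 138 matched had none (5.1%), against 4.3% of all matched promoters.

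Of the 4 members with the largest gaps, Ctsk, Fgf7 and Ogn are also shown by the 60-base array probe, among those within 1000 bp of the start, with the largest difference between MEF and ES lines. In the array's own coordinates, of which no source used here names the build, the probes lie at chr3:95373715-95373774 (Ctsk), chr2:125776372-125776431 (Fgf7) and chr13:49091983-49092042 (Ogn).
Ctsk probe: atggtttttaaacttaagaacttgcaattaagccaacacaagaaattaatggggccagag
Fgf7 probe: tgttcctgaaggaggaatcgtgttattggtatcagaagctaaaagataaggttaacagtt
Ogn probe: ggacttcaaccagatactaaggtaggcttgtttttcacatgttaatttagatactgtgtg
The Ctsk probe read -0.86 in E14 and -0.84 in V6.5 against 3.31 in MEF1 and 3.8 in MEF2, and 0.34 in iPS cells. The Ogn probe read 0.12 and -0.53 in the ES lines, 2.84 in MEF1, 4.88 in MEF2 and 0.34 in iPS cells. The Fgf7 probe read -0.81 and -0.73 in the ES lines, 3.14 in MEF1, 5.08 in MEF2 and 1.58 in iPS cells. Each probe was picked for its difference between MEF and ES lines, so that difference is a description. The iPS value lay between the ES and MEF values at each of these probes. It was nearer the ES values at the Ctsk and Ogn probes and about midway at the Fgf7 probe.

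Among the members were the array's promoter regions of 6 microRNAs, short RNAs that silence messages through bases 2 to 8, their seed. Their main mature forms (RefSeq, GRCm38.p6) are shown with the seed in capitals, since mmu-miR-29a-3p and mmu-miR-29b-3p have the same seed.
mmu-miR-199a-5p: cCCAGUGUucagacuaccuguuc
mmu-miR-199a-3p: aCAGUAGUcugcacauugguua
mmu-miR-21a-5p: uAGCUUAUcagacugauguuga
mmu-miR-29a-3p: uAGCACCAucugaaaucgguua
mmu-miR-29b-3p: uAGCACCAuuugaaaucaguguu
mmu-miR-125a-5p: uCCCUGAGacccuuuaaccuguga
mmu-miR-15b-5p: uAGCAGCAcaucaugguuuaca
The promoter of mmu-mir-199a-2 had H3K4me3 values of 0.08 in E14, -0.01 in V6.5, 2.13 in MEF1, 2.70 in MEF2 and 1.04 in iPS cells. The promoter of mmu-mir-21, a microRNA raised in fibrosis, had 0.80, 0.20, 2.52, 2.99 and 1.13 in the same order. In both cases the MEF lines were well above the ES lines, with iPS cells between them. The array starts of mmu-mir-29a and mmu-mir-29b-1, which target collagen messages, lie 0.3 kb apart on chromosome 6 and share most of their window, so they are not independent. Their MEF1 values were 1.09 and 0.91 and their MEF2 values 0.36 and 0.26, with both ES lines and the iPS line below 0. The members mmu-mir-125a and mmu-mir-15b had smaller gaps of 0.77 and 0.70. The array start of mmu-mir-125a lies 0.3 kb from that of another member, 4930546H06Rik, so their windows overlap and they are not independent. The expression arrays did not give a level for these microRNAs.

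Over the 200 members the median H3K4me3 value was -0.10 in E14, -0.28 in V6.5, 1.35 in MEF1, 1.36 in MEF2 and 0.23 in iPS cells, where the medians of all 15173 promoters were 0.93, 1.16, 1.01, 1.1 and 0.94. The ES and MEF values chose the members, so they are a description. The members were selected on these H3K4me3 values and on ES H3K27me3; limma called 178 of them higher in MEFs, against 2.06% of all promoters, from which nothing is read. In ES cells 107 members were below 0 in both lines and 12 were at or above 1 in both, whereas 137 were at or above 1 in both MEF lines. MEF2 exceeded MEF1 at 109 members (54.5%), against 59.4% of all promoters. The median gap was 0.97 (quartiles 0.78 and 1.54); 97 members had a gap of at least 1 and 30 of at least 2. The smallest gaps were those of Rin1 (0.58), LOC433479 (0.58) and Acat3 (0.59), and just outside lay Trim2 (0.58), Gpr173 (0.57) and Dpep1 (0.57).

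**Figure D1:**
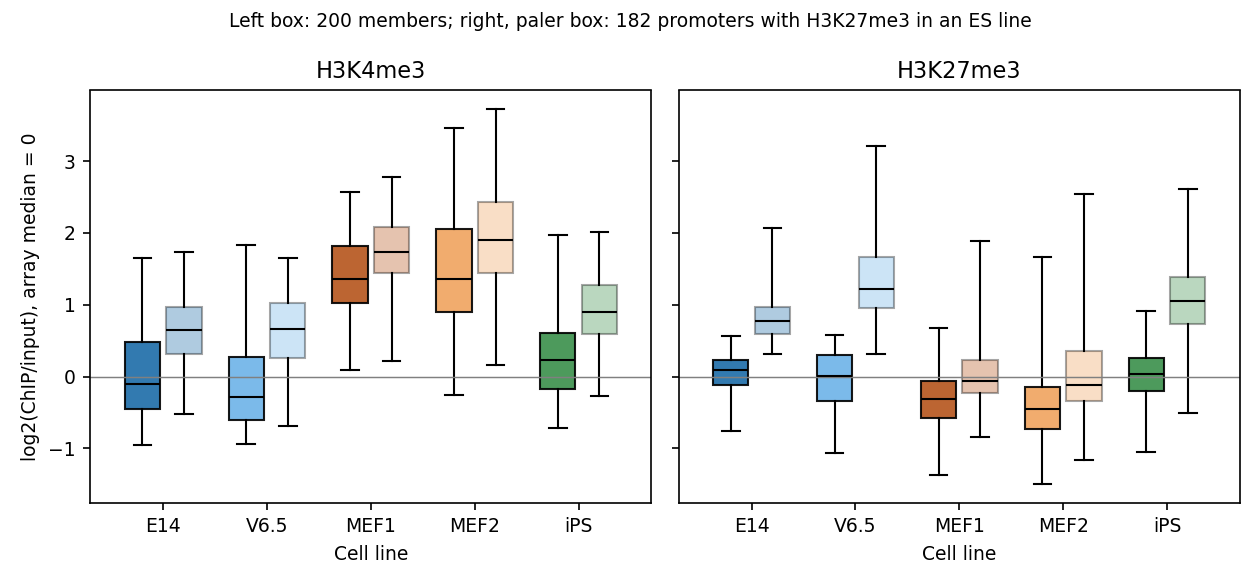
H3K4me3 and H3K27me3 (log2 of immunoprecipitate over input, array median at 0) by cell line; boxes give the quartiles and median and whiskers the full range, for the 200 members and, paler, for the 182 promoters with H3K27me3 in an ES line. The members' iPS median is 0.23 for H3K4me3 and 0.04 for H3K27me3, near the ES lines for both marks.

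The largest gap was at Ctsk, which encodes cathepsin K, a collagen-degrading protease. Ctsk read -0.65 in E14, -0.89 in V6.5, 2.57 in MEF1, 2.74 in MEF2 and -0.08 in iPS cells. Next came Fgf7 (fibroblast growth factor 7) and Col3a1 (type III collagen), each with a gap of 2.99, and Ogn (osteoglycin, a small proteoglycan) with 2.69. Abi3bp, which encodes a matrix protein, had a gap of 2.54 and Fap, a surface protease of activated fibroblasts, 2.51. The 12 largest gaps also included the splicing kinase gene Srpk2 (2.49), the ciliary gene Cc2d2a (2.49), Casp12 (2.47), the interleukin-33 receptor Il1rl1 (2.46), Ifi211 (2.46) and the antigen-presenting molecule Mr1 (2.42). In all 12 promoters the iPS value lay above both ES lines and below both MEF lines.

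**Figure D2:**
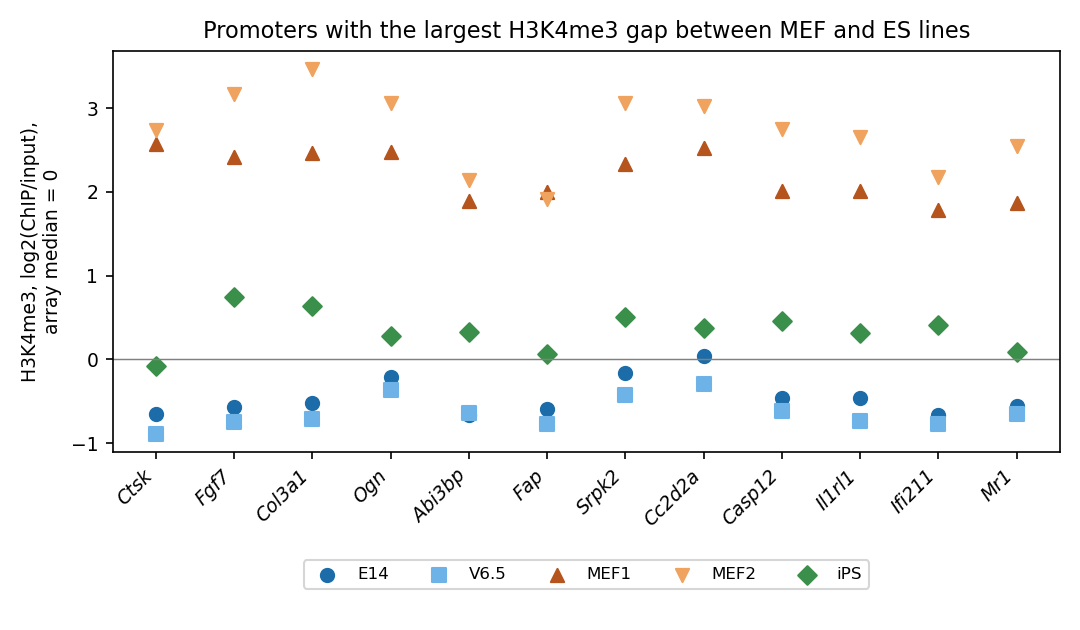
H3K4me3 (log2 of immunoprecipitate over input, array median at 0) in each cell line at the 12 members with the largest gap between the lower MEF and the higher ES line. For Ctsk the MEF lines are at 2.57 and 2.74 and the ES lines at -0.65 and -0.89.

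Probes were then averaged by distance from the start. Over the members the MEF signal was highest 500 to 1000 bp downstream, at 1.68 in MEF1 and 1.86 in MEF2, where E14 read -0.01, V6.5 -0.15 and iPS cells 0.35. The average over all promoters in that bin was 1.23 in MEF1 and 1.46 in MEF2. In the bin farthest upstream the members' lines were close together, between -0.45 and -0.17.

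**Figure D3:**
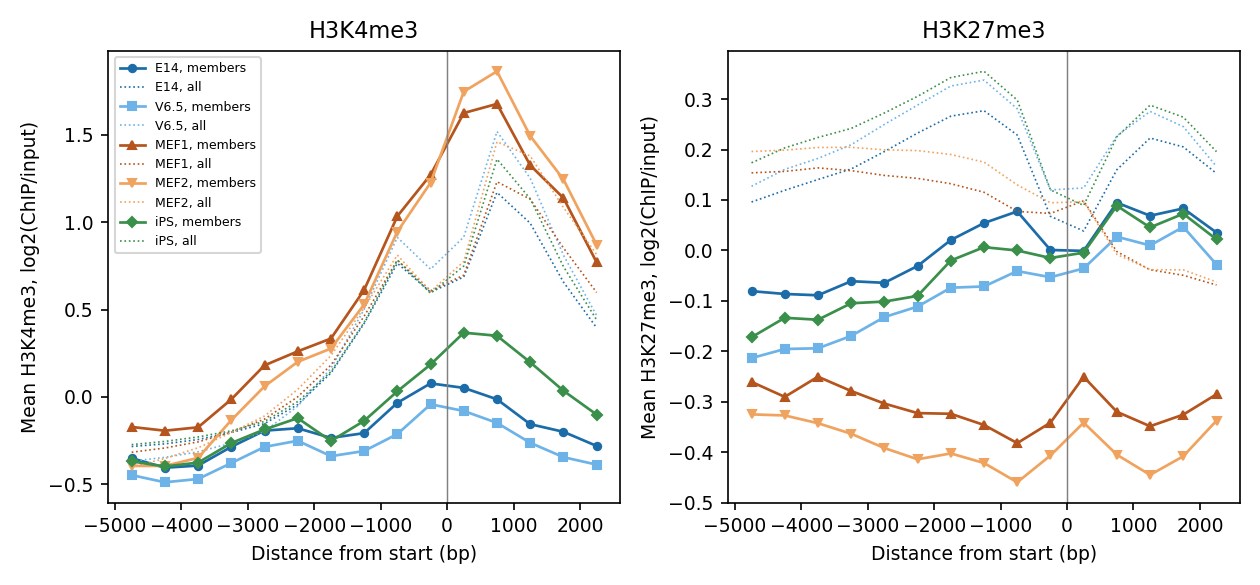
Mean H3K4me3 and H3K27me3 by distance from the start in 500-bp bins, for probes of the 200 members (solid, markers) and of all 15173 promoters (dotted), by cell line. The members' H3K4me3 is high only in MEF1 and MEF2 of the 5 lines around the start, and their H3K27me3 is lowest in the MEF lines.

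Extracellular matrix genes supplied the largest group. Of 44 such promoters kept, 14 were members (31.8%, against 1.32% of all promoters): Col3a1, Ogn, Aspn, Omd, Postn, Col5a2, Col6a1, Col6a2, Fbln2, Mfap5, Fmod, Bgn, Emilin1 and Mfap2. The list was drawn up with earlier results of these data known, so this share is a description. The RNA of 13 of the 14 rose in MEFs against ES cells, with a median log2 difference of 4.33. Omd was the exception, since its probe was above background on 1 MEF array alone and was not tested. On the whole list, members or not, 42 of 45 genes tested rose, with a median of 3.95. The rise was thus not particular to the members. A call on RNA here means an adjusted p under 0.05 by limma and at least a 2-fold difference; 15.5% of the 17346 genes tested were called higher in MEFs and 17.3% lower.

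Col3a1 RNA (log2 signal, 75th percentile of the array at 0) was 2.18 and 2.61 on the ES arrays, 7.18 and 6.35 on the MEF arrays and 0.66 and 0.58 on the iPS arrays. The MEF arrays were above all others, and as the probe was saturated on both, MEF RNA was at least 20.8-fold higher than ES RNA (adjusted p = 0.00131, limma). Postn encodes periostin, a matrix protein of collagen-rich tissues. Postn RNA was 43.1-fold higher in MEFs (log2 difference 5.43, SE 0.47, adjusted p = 0.000938), and its H3K4me3 was -0.60 and -0.62 in the ES lines, 1.64 and 2.12 in the MEF lines and -0.47 in iPS cells. Aspn and Omd encode small leucine-rich proteoglycans like Ogn. The iPS value of Aspn was -0.47 against -0.60 and -0.70 in ES cells, and that of Omd -0.38 against -0.55 and -0.68, so both were near the ES level.

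The proteoglycan genes Ecm2, Aspn, Omd and Ogn lie next to each other on chromosome 13 (array coordinates of the starts 48988586 to 49091938, a span of 103.4 kb), and all 4 were members. In all, 16 groups of members had starts within 200 kb of each other, holding 34 members. The same count was not made over all promoters, so nothing is read from it. The groups included Col3a1 with Col5a2, Col6a1 with Col6a2, Ccl2 with Ccl7, Gbp2 with Gbp4, Casp4 with Casp12, and Il1rl1 with Il18rap. Tmem176b and Tmem176a start 0.4 kb apart, so their windows overlap and they are not independent.

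Matrix proteases and their inhibitors gave 7 members of 32 promoters kept (21.9%), among them Ctsk, Adamts12, Mmp19, Serpinf1, Plat and Serpinh1. RNA of 5 of them rose in MEFs, as did that of 22 of 32 genes tested on the whole list. Ctsk RNA was -3.41 and -4.58 on the ES arrays, 1.41 and 0.98 on the MEF arrays and -3.97 and -3.76 on the iPS arrays, a 36.5-fold difference between MEFs and ES cells (adjusted p = 0.00122, limma). Serpinf1 encodes pigment epithelium-derived factor, a secreted serpin, and its RNA was 21.4-fold higher in MEFs. Serpinh1, the collagen chaperone, differed by 1.56 (SE 0.52, adjusted p = 0.0622, limma) with a saturated MEF signal, which did not pass the test.

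Contractile and cytoskeletal genes gave 5 members of 34 promoters kept (14.7%): Acta2 (smooth muscle actin), Anxa1 (annexin A1), S100a4, Tagln (transgelin) and Actg2. The RNA of all 5 rose in MEFs, as did that of 23 of 40 genes tested on the whole list. Acta2 H3K4me3 was -0.37 in E14, -0.41 in V6.5, 1.81 in MEF1, 2.29 in MEF2 and -0.20 in iPS cells. Acta2 RNA was 4.39 and 4.43 in ES cells, 7.46 and 6.49 in MEFs and 2.07 and 1.98 in iPS cells. The ES arrays thus read Acta2 RNA although the ES promoter values were below the array median; these arrays are of feeder-dependent cells, whose fibroblast markers were also above those of iPS cells, and the part of feeders was not tested. The MEF probe was saturated, so the MEF level was at least 5.92-fold higher. Without either ES array the Acta2, Anxa1 and Tagln calls were lost (adjusted p from 0.0508 to 0.175). Tagln H3K4me3 was 0.53 and 0.33 in ES cells, 1.37 and 1.74 in MEFs and 0.35 in iPS cells, which lay within the ES values.

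The only adhesion member of 29 promoters kept was Vcam1 (vascular cell adhesion molecule 1), and the only mesenchymal transcription factor of 27 was Runx2, the regulator of bone formation. Vcam1 RNA was 29.8-fold higher in MEFs (adjusted p = 0.00107, limma) and Runx2 RNA 6.23-fold higher (adjusted p = 0.0077, limma). The Runx2 call was lost with quantile normalization (log2 difference 1.72, adjusted p = 0.159), with normexp (1.18, adjusted p = 0.204) and without either ES array (adjusted p = 0.0556 and 0.0623). Runx2 H3K4me3 was -0.35 and -0.68 in ES cells, 1.82 and 1.96 in MEFs and 0.11 in iPS cells. None of 20 immediate early genes and none of 19 cell cycle brakes and p53 targets was a member, and Akr1b8, an aldo-keto reductase, was the only member of 32 vesicle, lysosome and detoxification genes. Of all promoters 1.32% were members, so counts of 0 or 1 in lists this small are not read as a depletion or an excess.

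Growth factor signalling gave 4 members of 42 promoters kept (9.5%): the secreted factors Fgf7 and Hgf (hepatocyte growth factor) and the receptors Il1rl1 and Il1r1. RNA of all 4 rose in MEFs, as did that of 31 of 43 genes tested on the whole list. Fgf7 RNA was -2.49 and -2.06 in ES cells, 4.34 and 2.70 in MEFs and -4.02 and -4.10 in iPS cells, a 55.4-fold difference between MEFs and ES cells (adjusted p = 0.00128, limma). Il1r1, the receptor for interleukin 1, was 55.3-fold higher. Hgf was not above background in ES or iPS cells, and its MEF level was at least 9.19-fold higher than in ES cells. Fgf7 had the highest iPS H3K4me3 of the 4 at 0.74, against -0.57 and -0.75 in ES cells and 2.42 and 3.16 in MEFs.

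Innate defence genes gave 6 members of 33 promoters kept (18.2%): Cp (ceruloplasmin), the chemokines Ccl7 and Ccl2, the cytokine Il6 and the Toll-like receptors Tlr4 and Tlr3. RNA of 5 rose in MEFs, and Tlr3 was not tested because its probe was above background on 1 MEF array alone. On the whole list, members or not, 27 of 34 genes tested rose. Cp rose from -6.73 and -6.04 in ES cells to 2.83 and 2.00 in MEFs, at least 106.9-fold since its ES signal was not above background; its iPS arrays read -6.91 and -7.18. Ccl2 RNA was 93.6-fold higher in MEFs, Ccl7 42.0-fold and Il6 35.2-fold. Ccl2 had a modest H3K4me3 level in MEFs of 0.62 and 0.47 despite this RNA difference, against -0.49 and -0.57 in ES cells.

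Interferon-responsive genes gave 6 members of 30 promoters kept, which belong to 29 genes (20%): the guanylate-binding protein Gbp2, the transcription factor Irf7, Ifi27, Ifi35, Ifi44 and Ifit2. RNA of 5 rose in MEFs, and Ifit2 was not tested. On the whole list, members or not, 23 of 37 genes tested rose. Gbp2 had its highest RNA in iPS cells: it read -0.67 and -1.68 in ES cells, 0.69 and 0.57 in MEFs, and 2.18 and 2.16 in iPS cells. The rise from ES cells to MEFs (adjusted p = 0.028, limma) was lost without the second ES array (0.126), with these groups alone (0.0863) and without the filter on dim probes (0.0916). The iPS arrays were above the MEF arrays (log2 difference 1.54, SE 0.47, adjusted p = 0.0443, limma), while the difference from ES cells was 3.34 (SE 0.47, adjusted p = 0.0697). Gbp2 H3K4me3 was lower in iPS cells, at 0.34, than in MEF1 (1.81) and MEF2 (2.37).

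Some markers of other cells were also higher in MEFs. Of 12 macrophage and blood markers, 11 were above background on both MEF arrays, and their summed level was 115 and 69.3 times the 75th percentile in MEFs, against 2.99 to 4.13 in ES and iPS cells. Most of that sum was Lyz2 alone, at 98.1 and 54.6 in MEFs. Tyrobp, Fcer1g and Csf1r were higher on both MEF arrays than on the others, whereas Laptm5 was lower on the MEF arrays than on the ES arrays, Cd68 differed little, and Spi1 was above background on 1 MEF array. None of these markers was a member, and their part in the RNA of the innate and interferon members was not tested. All 13 fibroblast markers were above background on both MEF arrays, with summed levels of 1326 and 683 in MEFs, 74.4 and 95.4 in the feeder-dependent ES cells and 26.1 and 23.3 in iPS cells. Fat markers summed to 22.0 and 15.3 in MEFs against 0.45 to 1.06 elsewhere, and 1 of them, Fabp4, is a member. Of 5 fat markers, 3 were above background on both MEF arrays, while Adipoq and Plin1 were on 1. Skeletal muscle markers summed to 7.63 and 5.40 in MEFs against 1.04 to 1.42 elsewhere, most of it Acta1. Of these 6 markers, Acta1 alone was above background on both MEF arrays, and Myog and Myf5 were on neither. The Myh3 mean was lower in MEFs (-3.37) than in ES (-1.64) or iPS cells (-0.57). The part of fat and muscle markers in the members' values was not tested. Of 12 pluripotency markers, Dppa5a and Utf1 were above background on both MEF arrays, Sox2, Nanog, Esrrb and Fbxo15 on neither and the others on 1; the list summed to 1.48 and 3.49 in MEFs and to 362 or more in ES and iPS cells. In bulk samples like these, fewer cells of a type and less RNA or less mark per cell cannot be told apart.

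All 200 members were accounted for in the RNA data. Of these, 13 had no expression probe, 38 had a probe that was not above background on both arrays of any group, and 149 were tested. Of the 149, 106 rose in MEFs against ES cells (71.1%) and 2 fell, Pop5 and Cntf, while 41 did not pass. Of the 182 promoters with ES H3K27me3, 149 were tested too and 125 rose (83.9%), a larger share than of the members. As 32 of the 149 passed the filter through MEFs alone, they had to be higher there. Without the filter, 98 of 187 members rose and 0 fell at the same thresholds in limma, where 6.66% and 4.95% of 27674 genes did, and 173 members (92.5%) had a MEF level above the ES level, against 66.1% of all genes. The median log2 difference was then 3.17 for members and 0.77 for all genes.

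The 8 members with the highest fitted log2 differences were Cp, Mrgprf (a G-protein-coupled receptor), Abi3bp, Ccl2, Tmem176b, Srpx2, Fgf7 and Il1r1. Cp, Mrgprf, Abi3bp and Srpx2 were not above background in ES cells, so their rises are lower bounds and the 8 have no settled order. Mrgprf rose at least 118.4-fold, Abi3bp at least 48.9-fold and Srpx2 at least 49.1-fold, while Tmem176b rose 91.7-fold. Pop5, a subunit of RNase P, went the other way: 4.26 and 4.70 in ES cells, 2.68 and 1.79 in MEFs and 4.43 and 4.25 in iPS cells, a fall of 4.75-fold (adjusted p = 0.0128, limma; 0.0604 and 0.0855 without either ES array). Its promoter had a gap of 0.62. Cntf, a neurotrophic cytokine, read 0.57 and 0.12 in ES cells and -1.14 and -1.19 in MEFs, and its call (adjusted p = 0.0293, limma) was lost under 7 alternatives, with adjusted p from 0.053 to 0.134.

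At some promoters with large gaps the RNA difference did not pass the test. Srpk2 H3K4me3 was -0.17 and -0.43 in ES cells, 2.33 and 3.06 in MEFs and 0.51 in iPS cells. Its RNA was 0.39 and 0.90 in ES cells, 1.12 and 0.19 in MEFs and 1.05 and 0.86 in iPS cells, so the groups overlapped (log2 difference 0.01, SE 0.48, adjusted p = 0.988). Cc2d2a was similar, with a gap of 2.49 and an RNA difference of 0.25 (SE 0.39, adjusted p = 0.651). Whether the expression probes read transcripts from the starts on the promoter array was not tested. Among members with a gap of at least 1, 68 of 93 with a probe rose in the unfiltered fit, and 30 of 94 with a smaller gap. Over all 27674 genes in that fit the share was 6.66%.

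**Figure D4:**
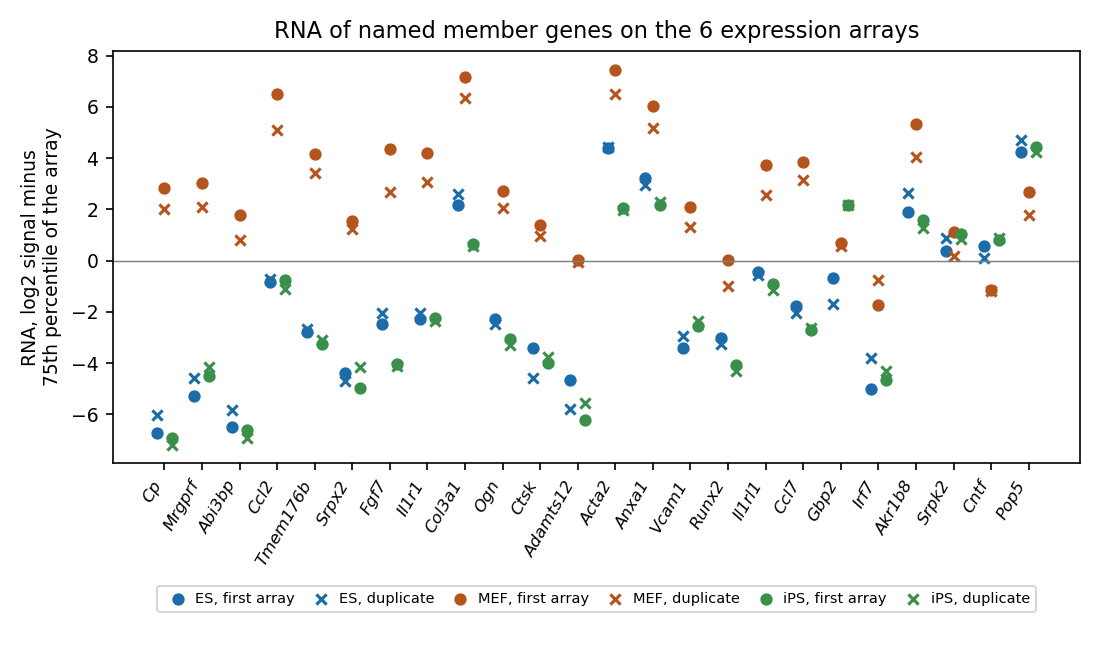
RNA of named members on the 6 expression arrays, as log2 signal minus the 75th percentile of the array; circles are first arrays and crosses duplicates. For Cp the MEF arrays read 2.83 and 2.00 and all 4 other arrays lie at or below -6.04, while Srpk2 overlaps between groups and Pop5 is lower in MEFs.

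In iPS cells the members' RNA was mostly lower than in MEFs. Against MEFs 108 of 149 fell (72.5%) and 4 rose, where 16.7% of all genes fell and 17.7% rose. The 4 that rose, named after their values were seen, were Gbp2, Cntf, Pop5 and Clca1. Against ES cells 0 of 149 passed in limma, where 0.0865% of genes were higher and 0.0634% lower, although 12 were higher and 30 lower at an unadjusted p under 0.05, where 7.06% and 8.45% of all genes were. Fitted on the ES and iPS arrays alone, 11 members were called higher and 24 lower, where 7.68% and 7.88% of all genes were. Without the filter on dim probes 107 of 187 members were called lower in iPS cells than in MEFs and 1 higher, against 8.07% and 5.51% of genes, and 0 differed from ES cells.

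The iPS line took no part in choosing the members. Its H3K4me3 was below both MEF lines at 199 of 200 members and above both ES lines at 142. At 141 members it lay between the groups, at 30 within the ES values, at 28 below both ES lines, and at Slitrk6 alone at or above the lower MEF line. On a scale from the ES mean (0%) to the MEF mean (100%) the median position was 18.5% (quartiles 5.34% and 27.5%), and 189 members were nearer the ES mean. The ES values had been chosen low and the MEF values high, so the position is a description. The 182 promoters with ES H3K27me3 had a median position of 24.1%, with 74.2% between the groups against 70.5% of the members.

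By limma 57 members were lower in iPS cells than in MEFs and 0 higher, against 0.488% and 0.534% of all promoters; as the MEF values chose the members, nothing is read from that share. The count was 1 without MEF2, 17 without MEF1 and 131 without either E14 or V6.5, and 0 with the median over the probes. With 1 iPS line, the spread in every fit of iPS marks came from the ES and MEF lines and holds no iPS variation. Ctsk differed by -2.74, but it was named for its MEF values, so nothing is read from this. Against ES cells 0 of 200 members and 0% of all promoters were called in limma, and 35 members (17.5%) had an unadjusted p under 0.05 and were higher in iPS cells, against 0.672% of all promoters, with 0 lower. The median difference over the 200 members was 0.24, against -0.04 for all promoters. The rule chose members with low ES values, so nothing is read from these shares.

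Members at the ends of this scale were as follows. Slitrk6, a neuronal membrane protein, read -0.54 and -0.48 in ES cells, 0.39 and 0.14 in MEFs and 0.35 in iPS cells. Rtp4, an interferon-induced chaperone of receptors, read 0.16 and -0.03 in ES cells, 1.27 and 0.90 in MEFs and 0.85 in iPS cells. The iPS value of Slitrk6 lay among the MEF values and that of Rtp4 just under them. The RNA of both fell from MEFs to iPS cells, by log2 differences of -3.08 and -3.19 (adjusted p = 0.0142 and 0.0036, limma), where the Slitrk6 probe was above background on 1 MEF array. Rtp4 RNA was also higher in MEFs than in ES cells (log2 difference 3.97, adjusted p = 0.00195, limma). For Slitrk6 the difference between MEFs and ES cells was 0.625 (adjusted p = 0.506, limma) and did not pass the test. Kctd12b, Stox2 and A230097C02 followed, with positions of 69.2%, 75.7% and 75.6%.

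At the other end the iPS value was below both ES lines. Akr1b8 read 1.21 and 1.14 in ES cells, 1.93 and 2.14 in MEFs and 0.69 in iPS cells. Serpinh1 read 0.87 and 1.09 in ES cells, 1.87 and 2.07 in MEFs and 0.69 in iPS cells. Both were among the few members with a clear ES signal, and the iPS value lay under it. Of the 28 members with iPS cells below both ES lines, Glipr1, Meig1 and Sh3glb1 were also among the 5 lowest relative to the lower ES line. Meig1 rested on 3 probes. Among gene lists with more than 1 member, median positions ran from 7.8% for the 5 contractile genes to 36.5% for the 6 interferon-responsive genes. The 14 matrix genes were at 9.1%. These differences between lists were not tested.

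H3K27me3 at the members was low throughout and lowest in MEFs. The median was 0.09 in E14 and 0.01 in V6.5, where the rule set the upper limit, -0.31 in MEF1, -0.45 in MEF2 and 0.04 in iPS cells, while the medians of all promoters lay between -0.08 and -0.01. Both MEF lines were below both ES lines at 143 members (71.5%), against 33% of the 11819 promoters under the same ES limit. In limma 44 members were lower in MEFs than in ES cells and 2 higher, against 7.7% and 4.63% of all promoters. The rule held the members' ES values under 0.58, while all promoters include higher ones, so nothing is read from these shares. These calls were 5 without MEF1 and 0 without MEF2 or without V6.5. The largest falls were at the zinc-finger gene Zbtb38 (-1.26), Tnfrsf11b (-1.21; osteoprotegerin, a decoy receptor) and Itih2 (-1.21; a hyaluronan-binding serum protein). This comparison was added after the values were seen.

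Tnfrsf11b H3K27me3 was 0.57 and 0.44 in ES cells, -0.58 and -0.84 in MEFs and 0.79 in iPS cells, so it was just under the limit in ES cells and above it in iPS cells. Itih2 read 0.30 and 0.28 in ES cells, -0.89 and -0.95 in MEFs and 0.67 in iPS cells. The highest iPS values were at Acat3 (0.91), Irf7 (0.84), Pik3r1 (0.81) and Tnfrsf11b; 11 members reached 0.58 in iPS cells. The iPS value was above both MEF lines at 161 members (80.5%), against 47.1% of all promoters. By limma 0 members and 0% of all promoters were called between iPS cells and MEFs, with 84 members at an unadjusted p under 0.05 and higher in iPS cells (42.0%, against 14.4% of all promoters).

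The value of 0.58 was reached by 1 member in MEF1 and by 9 in MEF2, and in both lines by Sox5 alone. Sox5, a transcription factor of cartilage, read 0.32 and 0.46 in ES cells, 0.68 and 0.86 in MEFs and 0.45 in iPS cells. In Tnfsf10 (a death ligand), Ppargc1a and Slc26a7 the lower MEF line read 0.54, 0.50 and 0.48, under that value. The 2 members called higher in MEFs were Abi3bp, from -0.21 and -0.42 to 0.44 in both lines, and C1qtnf7, from -0.23 and -0.39 to 0.32 and 0.59. Abi3bp, with an H3K4me3 gap of 2.54, thus stayed under 0.58 in H3K27me3.

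On the X chromosome lay 8 members (4.0%, against 3.51% of all promoters): Srpx2, P2ry10b, Vegfd, Capn6, Iqsec2, Bgn, Rtl8c and Kctd12b. In female MEF2 their H3K27me3 was above that of male MEF1 at 8 of 8, with a median difference of 0.81, against 45 of 192 autosomal members. All X-linked promoters did the same at 477 of 533 (89.5%), with a median of 0.45, so the share was near that background. Iqsec2 read 0.00 in MEF1 and 1.67 in MEF2, with H3K4me3 of 1.00 and 0.90. The inactive X chromosome of female cells is known to be rich in H3K27me3.

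The members were low in CpG. The rule did not use base composition, but it chose promoters by their ES marks. No set matched for those marks was compared, so the composition is a description. Their array probes within 1000 bp of the start held a median of 0.87 CpG per 100 bases, against 2.28 for all promoters and 1.57 for the 182 promoters with ES H3K27me3, and 195 of 200 members were below the median of all promoters. Their median GC content was 39.3%, against 45.3% for all. In the 250 bases before the RefSeq start, matched for 138 members and 11563 promoters, the medians were 1.6 and 5.2 CpG per 100 bases. These are shares and medians over promoters, which are not replicates. CpG-rich promoters are known to carry H3K4me3 in most cell types.

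**Figure D5:**
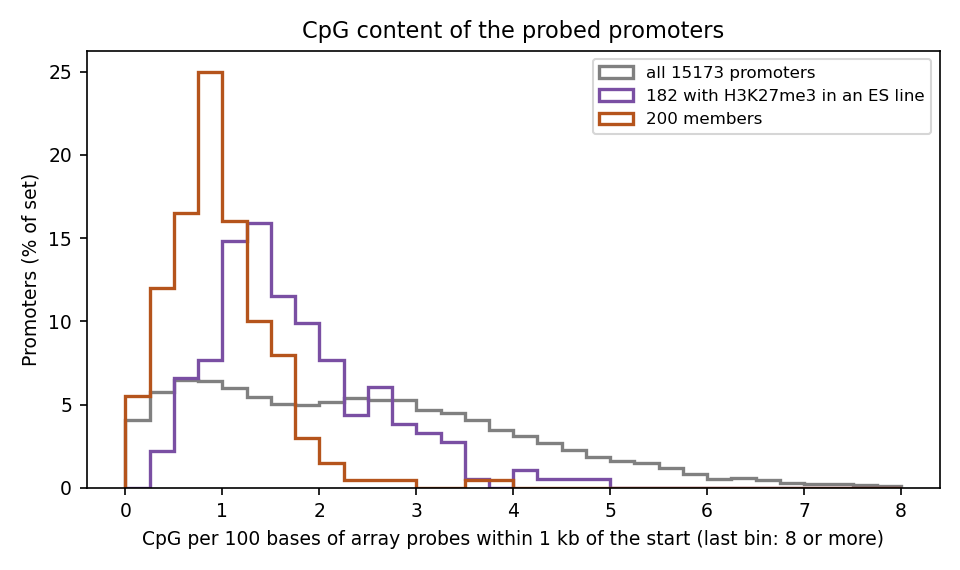
CpG dinucleotides per 100 bases of the array probes within 1000 bp of the start, as percent of each set (the last bin holds values of 8 or more). The members' median is 0.87, that of the promoters with H3K27me3 in an ES line 1.57 and that of all promoters 2.28.

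Motif letters were counted in the same 250-base windows on both strands. TGANTCA was in 22 of 138 members (15.9%) and in 5.83% of all promoters; the interferon-stimulated response element core in 7.97% and 2.80%; TATAAA in 18.1% and 10.2%; and GGAATG in 20.3% and 11.3%. The GC-rich GGGCGG was in 24.6% of members and 50.2% of all promoters, and CCAAT in 21.0% and 36.1%. In the 127 matched promoters with ES H3K27me3 the shares were 8.66% for TGANTCA, 7.87% for the interferon-stimulated response element core, 11.8% for TATAAA, 12.6% for GGAATG, 46.5% for GGGCGG and 28.3% for CCAAT, so for the interferon element the members were close to that set. The CArG box in its strict form was in 2 members (1.45%), in 1.24% of all promoters and in 1.57% of those with ES H3K27me3, so these shares were close. Base composition was not adjusted for. Of the members, 17 faced a divergent gene (8.5%, against 18.4% of all promoters).

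Several facts of the arrays touch these results. Per the file headers, the arrays of E14, V6.5, MEF1 and MEF2 were scanned on different days, so scan day and cell line cannot be told apart. MEF1 and MEF2 correlated at 0.981 for H3K4me3 and 0.945 for H3K27me3 across promoters, and the MEF H3K27me3 arrays correlated positively with the ES arrays (0.681 to 0.692), although their labelling text names the other dye for the immunoprecipitate. The MEF duplicate expression array stood apart: 86.7% of its probes were above background, against 46.4% on the first MEF array, and the pair correlated at 0.775, against 0.978 for ES and 0.992 for iPS arrays. Without it 115 members rose in MEFs and 5 fell. The number of arrays limits the precision.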

How the data were processed

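The deposited scanner files hold 2-colour intensities of promoter arrays and 1-colour intensities of expression arrays, made with Agilent Feature Extraction 9.1.3.1 and 9.5.1.1 per the file headers; no source used here names the genome build of the probes. Ratios were computed as log2 of the red (Cy5, immunoprecipitate) over the green (Cy3, input) processed intensity deposited by the authors, centred on the median of each array. The authors' deposited log10 ratios served as an alternative. For H3K27me3 in MEFs the labelling text names Cy3 for the immunoprecipitate while the label field names Cy5, and the label field was followed.

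A promoter was kept where its start lay between a matched pair of upstream and inside probes and at least 3 probes lay within 1000 bp. Of 17095 genes, 15173 promoters were kept. Groups were fitted with limma 3.58.1 in R 4.3.3 over all promoters or genes, with Benjamini-Hochberg adjustment and a threshold of 0.05; an RNA call also needed a 2-fold difference. RNA was log2 of the processed intensity minus the 75th percentile of the array, for probes that both arrays of some group measured above background. ES and MEF expression arrays are exchanged between the scanner files and the deposited value table; the value table, whose marker genes fit its labels, was followed. The scanner file of the iPS duplicate was incomplete and was not used, so its background flags are those of the first iPS array.

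The members, gene lists and marker lists were chosen with earlier results of these data known. Genes were named by fixed rules: the largest gaps, those next to the threshold, the largest RNA changes, the extreme iPS values, the highest H3K27me3, and up to 4 members per gene list; other members are named within their list. The fits were checked on simulated data. Alternatives covered background correction, scaling, probe window and summary, filters, the fit and each line or array left out. Some items are not reported here.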

Additional observations from a re-analysis of the deposited data

How the results depend on the processing

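Each value is given beside its main value. The number of members (200) was 717 with normexp background correction, which shared 162, and 97 with a gap of at least 1; leaving out a line gave 228 to 420, with all 200 kept. The median iPS position (18.5%) was 10.0% with normexp and 13.6% to 22.6% without a line. The median H3K27me3 in MEFs (-0.38) was -0.245 with normexp. Members called for H3K4me3 between iPS cells and MEFs (57) numbered 158 with normexp, 152 with arrays scaled to one median absolute deviation, 24 with probes within 500 bp, 0 with the median over the probes, 91 without divergent promoters, 170 with an intensity trend, 131 with these groups alone, and 1 to 131 without a line. Between iPS and ES cells (0) there were 1 with scaling and 11 with the trend. For H3K27me3 between iPS cells and MEFs (0) there were 62 with scaling, 56 with the trend, 7 with these groups alone and 0 to 7 without a line. For H3K27me3 between MEFs and ES cells (46) there were 109 with scaling, 25 within 500 bp, 28 with the median, 100 with the trend and 0 to 34 without a line. For RNA between MEFs and ES cells (108), the scanner files as filed turned every direction, with 108 calls, and leaving out an array gave 86 to 126; between iPS cells and MEFs (112) it gave 90 to 125; between iPS and ES cells (0) there were 35 with these groups alone. The cause of these differences was not tested. The slide as a replicate block gave 105, 109 and 1 RNA calls; arrays sharing a slide did not deviate together (correlations of -0.106 to 0.025), so the numbers do not pair the samples. No paired analysis was possible for the marks because the groups hold different cell lines.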
